A study of Danio rerio with 15 samples.

Results

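The RNA levels of 5 zebrafish genes that supply deoxynucleotides for DNA synthesis, rrm1, rrm2, tyms, dhfr and dut, are described over 15 poly(A) RNA libraries of dechorionated whole embryos. The genes were chosen by symbol, and the symbol rrm2 stands on 2 rows of the deposited table, ENSDARG00000078069 and ENSDARG00000020711, so that the genes make up 6 rows of 23726 genes. They were chosen with earlier results of these same values known, so their levels and fitted differences, and the count of rows past a threshold, are given as a description and test nothing. The tested lines were MZnup133 (depletion of nup133, a nuclear pore scaffold gene; MZ is read as maternal-zygotic), Tgnup133 (transgenic overexpression of nup133) and Melys (depletion of elys, which zebrafish nomenclature calls ahctf1 and whose protein seeds pore assembly on chromatin). Each line had 1 library at 3, 4 and 4.5 hours post fertilization (hpf), with no replicate. Wildtype embryos (WT) had 2 libraries at each stage, 1 as the control for MZnup133 and Tgnup133 (the nup133 set) and 1 as the control for Melys (the elys set). What promoter drives the transgene, in which cells, which alleles were used and how many embryos or clutches went into a library is not given in the sources used here. WT pairs are therefore separate samples whose spread may be technical, and MZnup133 and Tgnup133 share the same 3 WT libraries.

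Ribonucleotide reductase, built of a large subunit from rrm1 and a small subunit from rrm2, turns ribonucleotides into deoxyribonucleotides and is the rate-limiting step of their synthesis. Thymidylate synthase (tyms) makes dTMP from dUMP while oxidising its folate cofactor, dihydrofolate reductase (dhfr) restores that folate, and dUTPase (dut) removes dUTP and so yields the dUMP that tyms uses. Zebrafish embryos run through fast cleavage cycles on maternal stores before their own genome is switched on at about the mid-blastula stage, which makes maternal mRNA for these enzymes an early need.

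The libraries fitted their labels as whole early embryos: all 6 early-embryo marker genes (nanog, pou5f3, sox19b, buc, dazl and ddx4) were present, with a summed level of 2078 to 2924 FPKM. FPKM counts fragments per kilobase of a transcript, relative to all fragments mapped in that library. The 3 ovarian follicle markers in the table stayed under 1 FPKM in every library, and the blood, liver and gut, and muscle marker sums did not pass 6.17, 3.21 and 3.85 FPKM. The level of nup133 was 0.431, 0 and 0.208 FPKM in MZnup133 embryos, 18.0, 18.4 and 16.4 FPKM in Tgnup133 embryos and 9.35 to 13.1 FPKM in the 6 WT libraries. The level of ahctf1 was 13.5, 25.8 and 24.1 FPKM in Melys embryos at 3, 4 and 4.5 hpf, against 18.7, 26.8 and 19.5 FPKM in their WT libraries. The Melys value at 3 hpf lay below all 6 WT libraries, and the later values lay within their range, which joins all stages. Beside WT of the same stage, Melys lay below both libraries at 4 hpf (26.8 and 28.2 FPKM). At 4.5 hpf it lay above both (19.5 and 19.1 FPKM). The mRNA level thus did not differ from WT in 1 direction at 4 and 4.5 hpf. Read counts were not analysed here. Comparing the steps of low FPKM values put the relative depth at 0.915 to 0.980 in MZnup133, 1.07 to 1.48 in Tgnup133, 0.911 to 1.58 in Melys and 0.878 to 1.41 in WT libraries, with WT at 3 hpf of the nup133 set as 1.

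The rrm2 rows were split in opposite ways in the lines. Row ENSDARG00000078069 stood at 1.20, 2.24 and 5.25 FPKM in Tgnup133 embryos at 3, 4 and 4.5 hpf, against 312.9, 320.9 and 265.3 FPKM in the WT libraries of the nup133 set. In Melys embryos it stood at 2.96, 2.76 and 7.09 FPKM, against 296.6, 293.4 and 282.4 FPKM in the WT libraries of the elys set. Both lines were thus near the floor of the row at every stage, far outside the 265.3 to 320.9 FPKM of the 6 WT libraries. In MZnup133 embryos the same row stood at 369.8, 776.3 and 750.0 FPKM, above every WT library at all 3 stages. In whole-embryo RNA, fewer cells that hold an mRNA and less of it per cell cannot be told apart.

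Row ENSDARG00000020711 showed the reverse. It stood at 910.6, 1242 and 1319 FPKM in Tgnup133 embryos and at 880.3, 923.5 and 992.6 FPKM in Melys embryos. The WT values were 422.7, 449.2 and 594.5 FPKM in the nup133 set and 491.8, 481.3 and 535.9 FPKM in the elys set, and no WT library reached the lowest value of either line. In MZnup133 embryos the row stood at 428.9 FPKM at 3 hpf, within the WT range, and at 34.0 and 41.8 FPKM at 4 and 4.5 hpf, below every WT library.

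As a share of the summed rrm2 level, row ENSDARG00000078069 made up 0.131% to 0.397% in Tgnup133 embryos, 0.298% to 0.709% in Melys embryos and 30.9% to 42.5% in WT embryos. In MZnup133 embryos it made up 46.3% at 3 hpf, 95.8% at 4 hpf and 94.7% at 4.5 hpf. The 3 hpf MZnup133 library thus lay close to the WT shares and the later ones apart from them. The labels do not say whether the embryos of different stages came from the same parents.

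**Figure D1:**
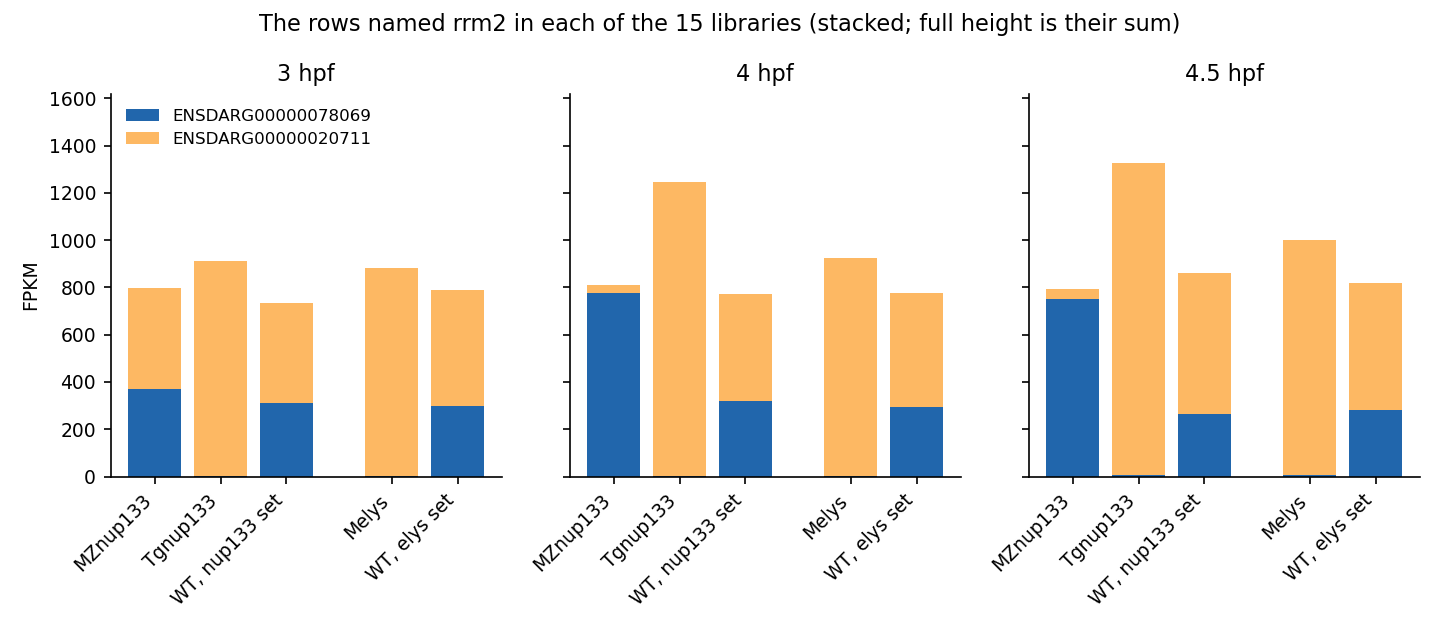
FPKM of the rrm2 rows in each of the 15 libraries, in 1 panel per stage in hpf, as stacked bars with ENSDARG00000078069 (blue) below ENSDARG00000020711 (orange). Row ENSDARG00000078069 is under 8 FPKM in all Tgnup133 and Melys libraries and at 265.3 FPKM or more in WT, while row ENSDARG00000020711 is under 42 FPKM only in MZnup133 embryos at 4 and 4.5 hpf.

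Added together, the rows differed far less between lines. The summed rrm2 level was 798.7, 810.3 and 791.8 FPKM in MZnup133 embryos, 911.8, 1245 and 1324 FPKM in Tgnup133 embryos and 883.3, 926.3 and 999.7 FPKM in Melys embryos. WT embryos had 735.7, 770.1 and 859.8 FPKM in the nup133 set and 788.4, 774.7 and 818.3 FPKM in the elys set. The MZnup133 sums lay within the WT range that joins all stages, and the Tgnup133 and Melys sums lay above all 6 WT libraries. Beside the WT libraries of their own stage, the MZnup133 sums lay above both at 3 and 4 hpf and below both at 4.5 hpf. Against the matched WT library the sum was 1.09, 1.05 and 0.921-fold in MZnup133 embryos, 1.24, 1.62 and 1.54-fold in Tgnup133 embryos and 1.12, 1.20 and 1.22-fold in Melys embryos. WT libraries of the same stage differed by 1.07, 1.01 and 1.05-fold, less than each line differed from its matched WT library. The MZnup133 differences were the smallest of the lines.

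The summed level placed rrm2 among the most abundant mRNAs: it ranked between the 99.6th and the 99.8th percentile of the 13493 genes tested in every library. Single rows ranked as low as the 12.9th percentile for ENSDARG00000078069 and the 72.6th percentile for ENSDARG00000020711. The file gives both identifiers the symbol rrm2, and the reference name table pairs both with RRM2. The RefSeq gene table, of the later build GRCz12tu, holds no gene now called rrm2 and gives that symbol as an earlier name of rrm2l and of rrm2b, and it pairs neither identifier with a gene. Which locus each row is was not resolved, so the summed level may join different genes. How reads that match both rows were divided is not given in the sources used here, so the rows are uncertain as separate loci. The part of read assignment in the split was not tested.

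The p53-inducible small subunit, rrm2b, can replace rrm2 outside S phase in mammals. Its level was 13.0 to 24.0 FPKM over all 15 libraries, with 14.2, 15.6 and 19.0 FPKM in MZnup133, 15.7, 17.0 and 19.7 FPKM in Tgnup133 and 14.1, 16.5 and 16.4 FPKM in Melys embryos. All 9 values lay inside the WT range of 13.0 to 24.0 FPKM, which joins all stages and both control sets. In the limma fits described below, log2 differences from matched WT were −0.43 ± 0.15 in MZnup133 and −0.33 ± 0.15 in Tgnup133 (± standard error). The difference was 0.02 ± 0.15 in Melys embryos, and none of these passed the adjusted threshold of 0.05.

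The large subunit, rrm1, was measured at 93.5, 113.6 and 114.2 FPKM in MZnup133 embryos and at 115.7, 104.0 and 120.1 FPKM in Tgnup133 embryos. Its WT level was 83.5, 81.1 and 83.0 FPKM in the nup133 set, and WT libraries of the same stage differed by 1.09, 1.10 and 1.15-fold. All 3 Tgnup133 values lay above the 6 WT libraries, whereas the MZnup133 value at 3 hpf lay within their range of 76.8 to 95.4 FPKM. That range joins all stages, and the MZnup133 value lay above both WT libraries of 3 hpf (83.5 and 76.8 FPKM). In Melys embryos rrm1 stood at 84.1, 98.4 and 100.8 FPKM, against 76.8, 88.9 and 95.4 FPKM in WT of the elys set. These differences of 1.10, 1.11 and 1.06-fold were slightly above the WT gaps of the same stage at 3 and 4 hpf. The difference at 4.5 hpf was below its WT gap. The ratio of summed rrm2 to rrm1, both per kilobase, was 6.93 to 8.54 in MZnup133, 7.88 to 11.97 in Tgnup133, 9.41 to 10.5 in Melys and 8.57 to 10.4 in WT embryos.

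The folate enzyme dhfr was the only member above all 6 WT libraries in every library of all 3 lines. The share of all genes with this pattern is not given, so nothing is read from it. Its level was 80.8, 80.1 and 74.2 FPKM in MZnup133 embryos, 98.0, 135.5 and 130.7 FPKM in Tgnup133 embryos and 119.9, 142.2 and 147.0 FPKM in Melys embryos. WT embryos had 63.7, 55.3 and 66.9 FPKM in the nup133 set and 56.9, 67.4 and 62.7 FPKM in the elys set. Against matched WT this was 1.27, 1.45 and 1.11-fold in MZnup133, 1.54, 2.45 and 1.95-fold in Tgnup133 and 2.11, 2.11 and 2.35-fold in Melys embryos, where WT pairs differed by 1.12, 1.22 and 1.07-fold. The MZnup133 value at 4.5 hpf therefore lay closest to WT. Median-ratio scaling lowered the fitted MZnup133 difference of dhfr, as given below.

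dUTPase mRNA lay lowest of the members in WT embryos. The level of dut was 10.7, 11.5 and 17.1 FPKM in MZnup133 embryos and 12.1, 15.7 and 20.1 FPKM in Tgnup133 embryos, against 17.5, 20.0 and 21.6 FPKM in WT of the nup133 set. In Melys embryos it was 13.1, 12.3 and 14.5 FPKM, against 15.5, 17.3 and 14.5 FPKM in WT of the elys set. Each line was lower than its matched WT at 3 and 4 hpf. At 4.5 hpf the WT libraries themselves differed by 1.48-fold, more than any line differed from its matched WT.

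**Figure D2:**
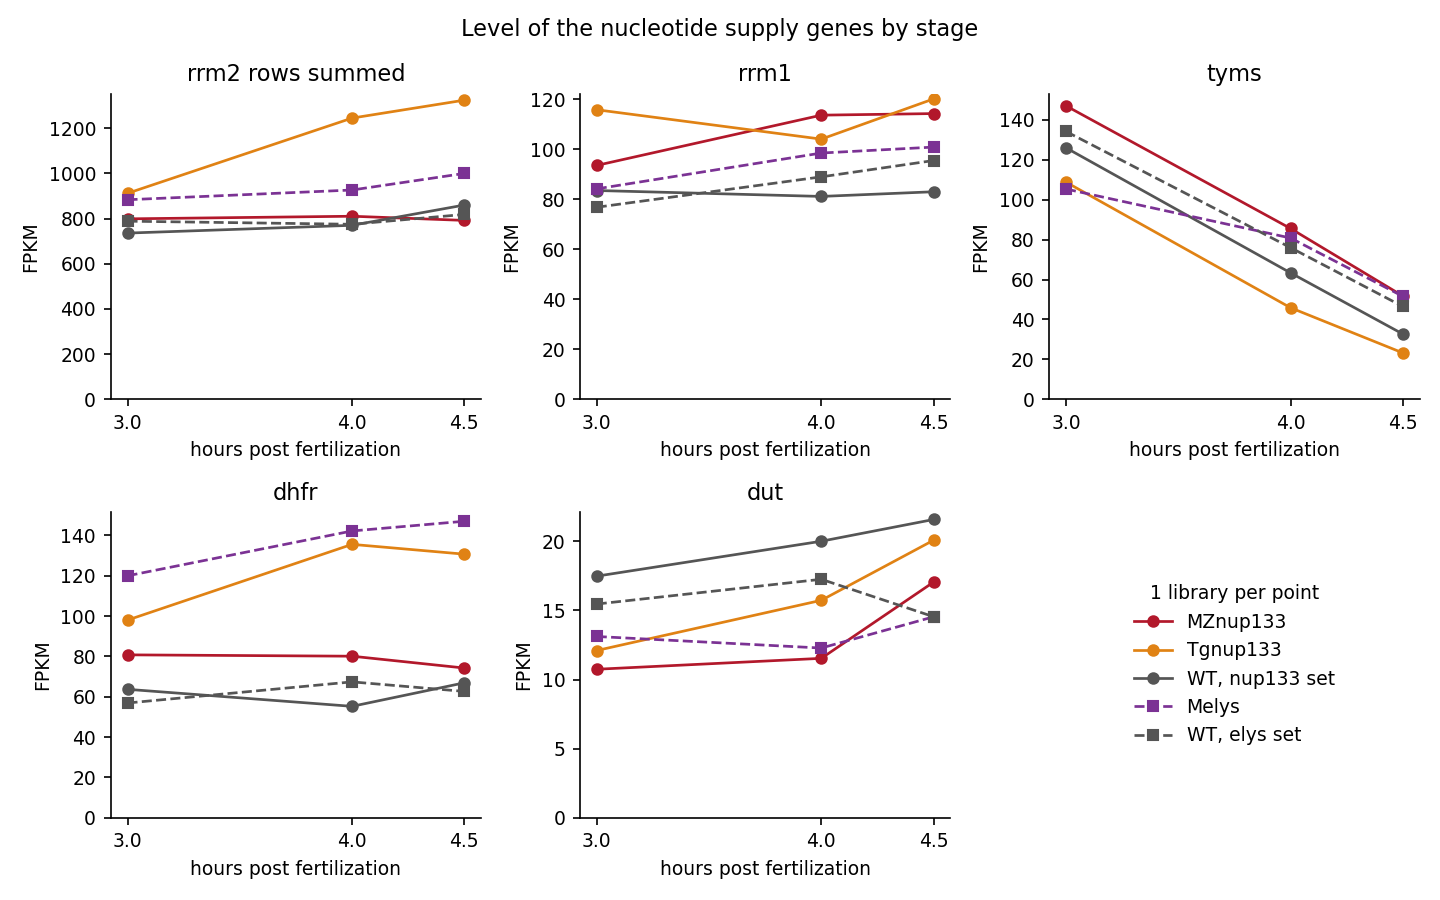
FPKM of rrm1, the summed rrm2 rows, tyms, dhfr and dut against stage in hpf, with lines for MZnup133, Tgnup133, Melys and the WT libraries of both control sets. The tyms level is lower at 4.5 hpf than at 3 hpf in every series, and dhfr in Tgnup133 and Melys lies above the WT range of 55.3 to 67.4 FPKM throughout.

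The thymidylate synthase mRNA was the member that varied most with stage in WT embryos. Its level was 126.0, 63.3 and 32.7 FPKM at 3, 4 and 4.5 hpf in the nup133 set and 134.2, 76.0 and 46.5 FPKM in the elys set, a mean of 130.1 ± 5.8, 69.7 ± 8.9 and 39.6 ± 9.8 FPKM (SD, n = 2). At 4.5 hpf it was 26.0% and 34.7% of the 3 hpf level in these WT series. The same order of stages held in the lines, where tyms stood at 147.0, 85.6 and 51.8 FPKM in MZnup133, 108.8, 45.9 and 23.3 FPKM in Tgnup133 and 105.3, 80.8 and 51.6 FPKM in Melys embryos. The 4.5 hpf level was 35.2% of the 3 hpf level in MZnup133, 21.4% in Tgnup133 and 49.0% in Melys embryos. The MZnup133 values lay above all WT values of their stage at 3, 4 and 4.5 hpf, by 1.17, 1.35 and 1.58-fold over matched WT, and the Tgnup133 values lay below all WT values of their stage, while WT pairs differed by 1.07, 1.20 and 1.42-fold.

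Zygotic-stage marker genes differed between the lines too. The summed level of 5 zygotic-stage genes (nnr, tbx16, vox, noto and sox3) was 2.01, 65.9 and 223.5 FPKM in MZnup133 embryos at 3, 4 and 4.5 hpf, 35.2, 608.1 and 1107 FPKM in Tgnup133 embryos and 2.51, 152.6 and 233.8 FPKM in Melys embryos. In WT embryos it was 12.7 to 15.4 FPKM at 3 hpf, 528.4 to 530.3 FPKM at 4 hpf and 899.7 to 1121 FPKM at 4.5 hpf. Not every gene followed the sum: vox in Melys embryos at 4 hpf was 42.7 FPKM, against 31.5 and 41.2 FPKM in WT. There nnr, tbx16, noto and sox3 were lower than in both WT libraries. The mitochondrially encoded share of the FPKM sum was 5.10% to 6.53% in MZnup133, 7.39% to 8.79% in Tgnup133, 4.76% to 5.31% in Melys and 7.29% to 10.2% in WT libraries. The part of either in the member differences was not tested.

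The remaining members varied less with stage in WT embryos. The WT means at 3, 4 and 4.5 hpf were 80.1 ± 4.7, 85.0 ± 5.5 and 89.2 ± 8.8 FPKM for rrm1 and 60.3 ± 4.8, 61.3 ± 8.6 and 64.8 ± 3.0 FPKM for dhfr (SD, n = 2). They were 16.5 ± 1.4, 18.6 ± 1.9 and 18.1 ± 5.0 FPKM for dut and 762.0 ± 37.3, 772.4 ± 3.3 and 839.0 ± 29.4 FPKM for summed rrm2. Per kilobase the order of WT levels was summed rrm2, then rrm1, then dhfr, then dut at all 3 stages. WT tyms stood between summed rrm2 and rrm1 at 3 hpf, between rrm1 and dut with dhfr overlapping at 4 hpf, and between dhfr and dut at 4.5 hpf.

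A model over all genes sets these values beside the rest of the transcriptome. Differences were fitted with limma on log2(FPKM + 1) for the 13493 genes that averaged 1 FPKM or more across the 15 libraries, each line as 1 effect over its 3 stages against WT of its own set and stage, with p-values adjusted over all of these genes and a threshold of 0.05. All 6 member rows passed the filter on low values. For each gene 1 residual spread was fitted over the 3 lines together, with stages in place of replicates. The standard error (SE) of a line is therefore not its own spread. For row ENSDARG00000020711 the SE was 0.69 in all 3 lines. Its log2 differences from matched WT at 3, 4 and 4.5 hpf were 0.02, −3.69 and −3.80 in MZnup133 embryos. They were 1.11, 1.47 and 1.15 in Tgnup133 and 0.84, 0.94 and 0.89 in Melys embryos. The pseudocount of 1 FPKM understates the change of low rows. Summed rrm2 was fitted in the same way with its rows replaced by their sum.

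In MZnup133 embryos the fitted log2 differences were 0.37 ± 0.10 for rrm1, 1.0 ± 0.33 for rrm2 ENSDARG00000078069, −2.49 ± 0.69 for rrm2 ENSDARG00000020711 and 0.02 ± 0.10 for summed rrm2 (± SE). They were 0.43 ± 0.15 for tyms, 0.34 ± 0.13 for dhfr and −0.57 ± 0.17 for dut, where the median of all genes was 0.15. Past the threshold were 1 of 6 rows higher (rrm1) and 2 lower (rrm2 ENSDARG00000020711 and dut), where 13.7% of all genes were called higher and 8.32% lower. Without the 3 hpf libraries row ENSDARG00000020711 differed by −3.74. Without the 4 hpf libraries the differences of that row, rrm1 and dut were −1.89, 0.31 and −0.49, without the 4.5 hpf libraries they were −1.83, 0.32 and −0.70, and none of these passed the threshold. These smaller fits called 232 and 771 of all genes, against 2968 with all stages. Median-ratio scaling gave 0.18 for rrm1, no longer past the threshold, 0.24 for tyms, 0.15 for dhfr and −0.17 for summed rrm2.

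In Tgnup133 embryos the fitted log2 differences were −6.40 ± 0.33 for rrm2 ENSDARG00000078069, 1.24 ± 0.69 for rrm2 ENSDARG00000020711 and 0.54 ± 0.10 for summed rrm2. They were 0.45 ± 0.10 for rrm1, −0.38 ± 0.15 for tyms, 0.95 ± 0.13 for dhfr and −0.31 ± 0.17 for dut. With all stages fitted, the higher summed rrm2 level passed the threshold. Of the 6 rows, 1 was past it higher (dhfr) and 1 lower (rrm2 ENSDARG00000078069), where 0.800% of all genes were called higher and 1.15% lower. Without the 4 hpf libraries neither of these rows passed the threshold, at 0.78 for dhfr and −6.29 for row ENSDARG00000078069. Without the 4.5 hpf libraries dhfr missed it at 0.95. These fits called 1 and 18 of all genes, against 263 with all stages.

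In Melys embryos the fitted log2 differences were −5.88 ± 0.33 for rrm2 ENSDARG00000078069, 0.89 ± 0.69 for rrm2 ENSDARG00000020711 and 0.24 ± 0.10 for summed rrm2. They were 0.12 ± 0.10 for rrm1, −0.04 ± 0.15 for tyms, 1.12 ± 0.13 for dhfr and −0.23 ± 0.17 for dut. Past the threshold were 1 row higher (dhfr) and 1 lower (rrm2 ENSDARG00000078069), where 5.48% of all genes were called higher and 4.65% lower. Without the 4 hpf libraries dhfr missed the threshold at 1.14, in a fit that called 147 of all genes, against 1368 with all stages. Median-ratio scaling gave 0.13 for summed rrm2 and 0.01 for rrm1. In WT embryos at 4.5 hpf against 3 hpf, tyms differed by −1.71 ± 0.13 and was the 1 row of 6 called, lower, where 14.1% of all genes were called higher and 22.8% lower. The WT difference of row ENSDARG00000078069 was −0.15 ± 0.10, with the sign turned to 0.13 by median-ratio scaling. That scaling put rrm1 at 0.44, row ENSDARG00000020711 at 0.59 and summed rrm2 at 0.43, all then past the threshold, against 0.15, 0.31 and 0.14 without it, and dhfr at 0.39 and dut at 0.38, against 0.10 for both. Since the members were chosen on these contrasts, nothing is read from the counts of rows.

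**Figure D3:**
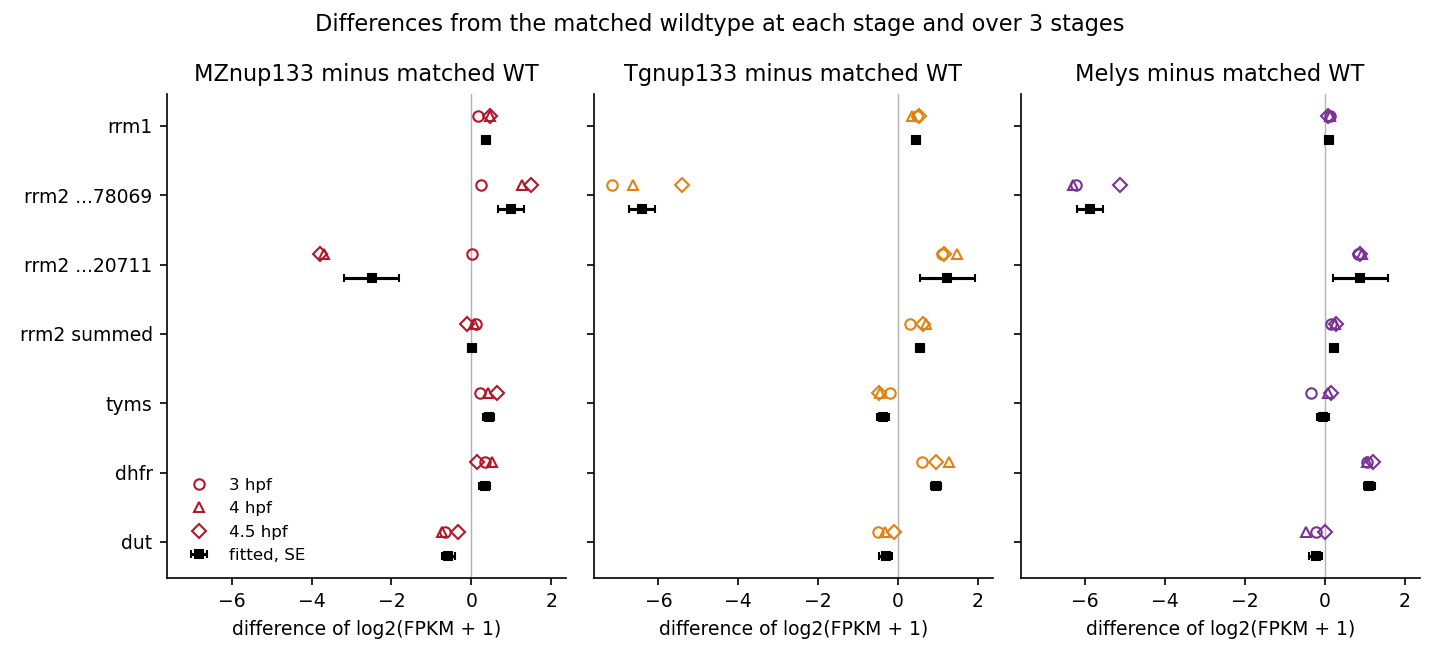
Differences of log2(FPKM + 1) from matched WT for each member row and for summed rrm2, in MZnup133, Tgnup133 and Melys; open symbols are single stages, and black squares with bars are the fitted difference over 3 stages and its SE. In the fitted differences the rrm2 rows lie far apart in all 3 lines, from −6.40 to 1.24 in Tgnup133, whereas their sum lies between 0.02 and 0.54. At 3 hpf in MZnup133 the single-stage points of the rows lie close, at 0.24 and 0.02.

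Genes of the surrounding pathways were then examined in a list of 108 symbols in 8 roles, of which 95 were in the table and 78 passed the filter. This list too was chosen with earlier results of these data known, so its calls and p-values are given as a description. The list covers purine and pyrimidine synthesis, other deoxynucleotide-making genes, deoxynucleoside salvage, nucleotide clearance, folate and one-carbon supply, nucleobase salvage, and E2F regulators of S-phase genes together with cyclin F. In WT embryos at 4.5 hpf against 3 hpf, 20 of 78 genes rose and 11 fell. Their median log2 difference was 0.07, where the median of all genes was −0.16, and 14.1% of all genes rose and 22.8% fell.

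Among WT risers was e2f7, an E2F repressor, at 10.5 and 9.03 FPKM at 4.5 hpf and listed at 0 in both 3 hpf libraries. In the role of E2F regulators and cyclin F, 5 of 12 genes rose, the cyclin F gene ccnf among them. Of all genes 14.1% rose and 22.8% fell. Neither e2f1 nor e2f3 was called. The pocket protein gene rbl1 stood at 10.5 and 9.82 FPKM at 4.5 hpf, against 1.02 and 2.44 FPKM at 3 hpf. In purine synthesis 4 of 14 genes rose and 1 fell, with paics, which carries out a pair of middle steps, at 83.1 and 82.0 FPKM against 20.8 and 24.5 FPKM. The purine nucleoside phosphorylase gene pnp4a stood at 10.4 and 4.37 FPKM at 4.5 hpf, against 0.280 and 0.401 FPKM at 3 hpf.

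Among WT fallers was mtr, methionine synthase, at 3.25 and 5.19 FPKM at 4.5 hpf, against 45.9 and 48.8 FPKM at 3 hpf, a log2 difference of −3.24 ± 0.19. The thioredoxin reductase gene txnrd3 fell by 3.06 ± 0.20, the uridine-cytidine kinase-like gene uckl1b by 2.74 ± 0.30 and the nucleoside transporter gene slc29a2 by 2.35 ± 0.21 on the log2 scale. The folate transporter gene slc46a1 fell by 1.95 ± 0.22 and the mitochondrial thymidine kinase gene tk2 by 1.89 ± 0.33. In folate and one-carbon supply, the role closest to tyms and dhfr, 4 of 14 genes rose and 2 fell. Of all genes 14.1% rose and 22.8% fell.

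Leaving out 1 WT library at a time, which leaves 1 residual degree of freedom, gave 8 to 17 calls, against 31, where calls over all genes numbered 1304 to 3116, against 4986. Of the genes named, pnp4a (2.08 and 2.10), rbl1 (1.64 to 2.27), slc46a1 (−1.72), tk2 (−2.16 to −1.42) and uckl1b (−2.63) then missed the threshold in at least 1 of these fits. Median-ratio scaling put the all-gene median at 0.08, and 29 genes then rose and 9 fell, and with every library scaled to the same FPKM sum 11 rose and 12 fell. At 4 hpf against 3 hpf 3 genes rose and 5 fell, among them txnrd3 (−2.29), the deoxycytidine kinase gene dck (−2.11), tk2 (−1.94), mtr (−1.85), slc29a2 (−1.36) and e2f7, which was listed at 0 at 3 hpf. At 4.5 hpf against 4 hpf 3 rose (pnp4a by 2.35, e2f7 by 1.58 and e2f8, another E2F repressor, by 1.03) and mtr fell by 1.39. WT dck stood at 5.72 and 2.44 FPKM at 3 hpf, 0.241 and 0 FPKM at 4 hpf and 1.88 and 0.781 FPKM at 4.5 hpf. That gene passed the filter on low values mainly through WT and Tgnup133 libraries of 3 hpf, so nothing is read from its call. The list medians were 0.12 and −0.07 in these shorter comparisons, where those of all genes were −0.01 and −0.15. Leaving out any 1 WT library of the stages compared gave 0 calls in the list by limma, with 12 to 18 and 12 to 19 genes at an unadjusted p under 0.05. Over all genes these smaller fits gave 0 to 112 calls, against 937, at 4 against 3 hpf and 0, against 674, at 4.5 against 4 hpf. With all WT libraries, 3.61% of all genes were called higher and 3.34% lower at 4 against 3 hpf. At 4.5 against 4 hpf 1.76% were called higher and 3.23% lower. Of the 6 member rows only tyms, the member that varied most with stage, was called in these shorter comparisons, lower in both. Its differences of −0.90 and −0.81 ranged from −1.04 to −0.75 and from −0.97 to −0.65 with 1 WT library left out, none past the threshold.

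In MZnup133 embryos 7 of the 78 pathway genes rose and 12 fell, where 13.7% of all genes rose and 8.32% fell. The median log2 difference of the list was −0.06 and that of all genes 0.15. The largest fall was that of mthfd2, a mitochondrial one-carbon enzyme, at 0.224, 0.834 and 1.54 FPKM in MZnup133 embryos, against 5.20, 7.34 and 9.72 FPKM in WT of the nup133 set. The purine enzyme adsl stood at 14.8, 21.8 and 26.5 FPKM in MZnup133 embryos, against 2.82, 3.57 and 7.07 FPKM in WT. The guanine nucleotide enzyme impdh1b stood at 2.92, 4.47 and 5.85 FPKM in MZnup133 embryos, against 14.3, 19.2 and 30.5 FPKM in WT. None of these 3 genes had MZnup133 and WT values that overlapped, but they were named as the largest differences past the threshold. The share of all genes without overlap is not given.

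Of 5 nucleotide clearance genes, 2 rose and 2 fell in MZnup133 embryos, where 13.7% of all genes rose and 8.32% fell. This small role had the highest share called of the 8 roles, and over the whole list 19 of 78 genes were called. The dCTP pyrophosphatase gene dctpp1 fell by 1.85 ± 0.21, and samhd1, which degrades dNTPs, rose by 1.39 ± 0.27 on the log2 scale. The adjusted p-values from limma were 0.00054 for dctpp1 and 0.0071 for samhd1. Without the 4 hpf libraries 3 genes were called, against 19, and mthfd2 (−2.21), adsl (1.91) and samhd1 (1.56) missed the threshold, in the fit with 232 calls over all genes, against 2968. Without the 4.5 hpf libraries 5 genes were called, and samhd1 (1.0) missed it. Median-ratio scaling gave 6 higher and 17 lower with the all-gene median at −0.02, and the same FPKM sum in every library gave 11 higher and 10 lower.

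In Tgnup133 embryos 2 of 78 pathway genes fell, dctpp1 and prps1b, and by limma none rose, where 4 were higher and 8 lower at an unadjusted p under 0.05. The median log2 difference of the list was −0.08 and that of all genes −0.04, and 0.800% of all genes rose and 1.15% fell. The product of prps1b makes the ribose phosphate donor of nucleotide synthesis. Its mRNA level was 28.4, 33.6 and 31.7 FPKM in Tgnup133 embryos, against 59.6, 64.0 and 77.9 FPKM in WT of the nup133 set. These values did not overlap, in a gene named for passing the threshold, and the share of all genes without overlap is not given. With any 1 stage left out neither gene passed the threshold, at −1.69 to −1.42 for dctpp1 and −1.16 to −0.98 for prps1b, where 1 to 90 of all genes were called, against 263 with all stages.

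In Melys embryos 3 of 78 pathway genes rose and 5 fell, where 5.48% of all genes rose and 4.65% fell. The median log2 difference of the list was 0.05 and that of all genes 0.07. The uridine-cytidine kinase gene uck2a stood at 22.6, 57.5 and 24.1 FPKM in Melys embryos, against 136.9, 171.1 and 155.5 FPKM in WT of the elys set. The nucleoside transporter gene slc29a2, which fell with stage in WT, stood at 29.4, 21.2 and 14.1 FPKM in Melys embryos, against 16.9, 6.34 and 2.74 FPKM in WT. Also past the threshold were adsl (1.32 ± 0.29), aldh1l2, a mitochondrial folate enzyme (−1.26 ± 0.27), and shmt1, the cytosolic serine hydroxymethyltransferase (−0.78 ± 0.18). Without the 4 hpf or the 4.5 hpf libraries 2 genes were called, against 8, where calls over all genes numbered 147 and 368, against 1368: slc29a2 (1.39 and 1.18) and adsl (1.42 and 0.91) missed the threshold, and aldh1l2 (−1.41 to −1.14) and shmt1 (−0.96 to −0.52) missed it with any 1 stage left out.

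The dctpp1 mRNA stood at 14.8, 10.4 and 15.4 FPKM in MZnup133, 13.5, 21.0 and 15.7 FPKM in Tgnup133 and 18.9, 14.9 and 22.2 FPKM in Melys embryos. WT embryos had 51.9, 53.5 and 47.1 FPKM in the nup133 set and 59.9, 70.7 and 71.5 FPKM in the elys set. No value of a line reached the lowest WT value, but dctpp1 is named here for passing the threshold in all 3 lines. The share of all genes called, or without overlap, in all 3 lines is not given. MZnup133 and Tgnup133 also share their WT libraries, so their calls are not independent. The product of dctpp1 keeps the dCTP pool in check, the pool that the reductase encoded by rrm1 and rrm2 helps to fill.

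**Figure D4:**
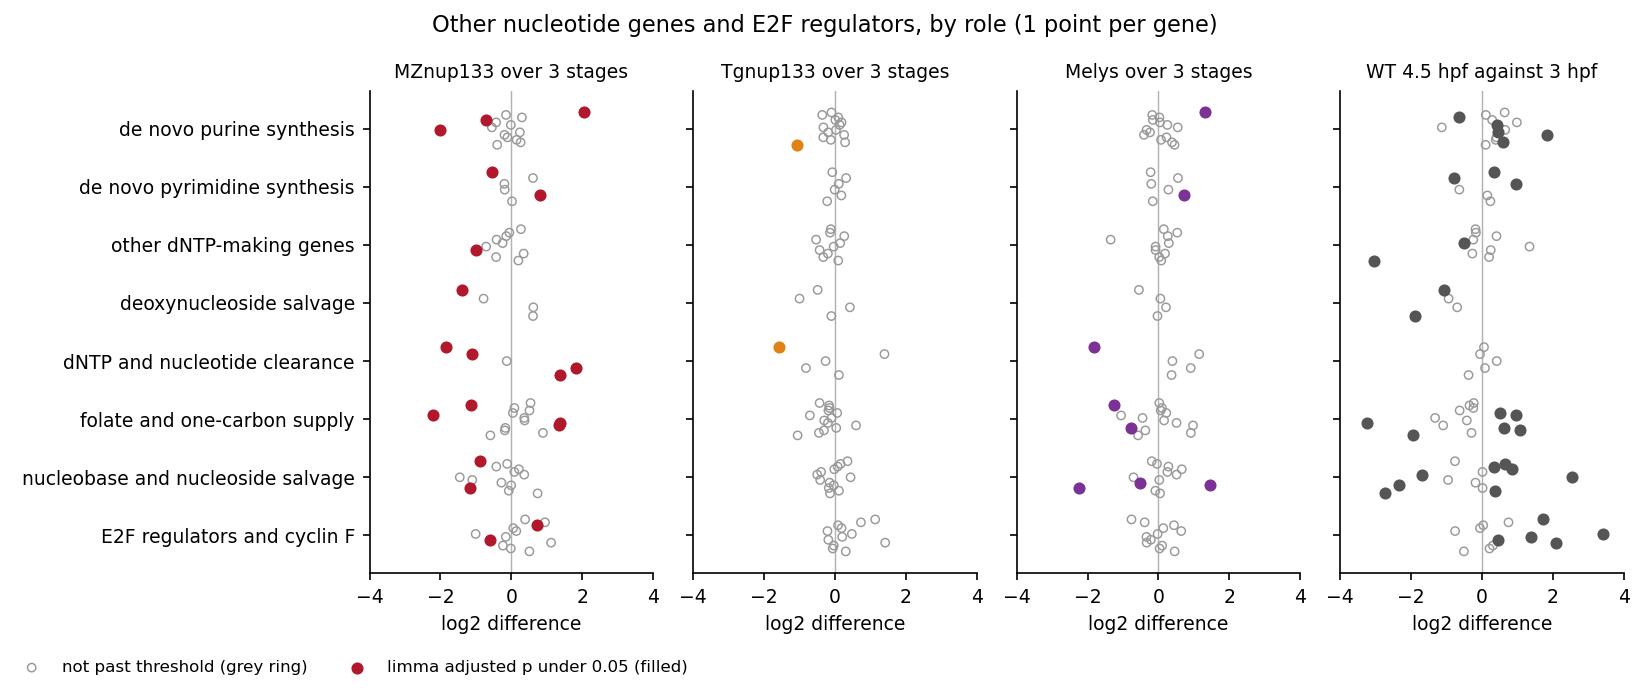
Log2 differences of the 78 tested pathway genes by role, 1 point per gene, in MZnup133, Tgnup133 and Melys over 3 stages and in WT at 4.5 hpf against 3 hpf. Filled points passed the limma threshold and grey rings did not: 19 genes are filled in MZnup133, 2 in Tgnup133, 8 in Melys and 31 in the WT comparison.

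The genes whose pattern was most like that of each rrm2 row were found by Pearson's r of log2(FPKM + 1) over the 15 libraries, as a description, since the libraries share WT samples and lines. Row ENSDARG00000078069 was closest to apmap (r = 0.962), tpm4b (0.952), snw1 (0.949), cnn3a (0.947) and si:dkey-19a16.7 (0.944). Since r takes no account of the size of a change, these genes differed in it. In WT and Tgnup133 embryos, apmap stood at 61.4 to 68.6 and 38.0 to 44.0 FPKM, and tpm4b at 12.1 to 21.9 and 1.20 to 4.72 FPKM. Row ENSDARG00000020711 was closest to sh3glb1a (0.976), spata6l (0.973), ppp3r1b (0.964), serpina10a (0.937) and eif1axb (0.936). The nearest to summed rrm2 were kdm6bb (0.892) and nle1 (0.853), and the nearest to rrm1 were cse1l (0.872) and mgst3b (0.870). In WT embryos kdm6bb was near the floor, at 0.216 to 0.545 FPKM. Over the same libraries r was −0.71 between the rrm2 rows and −0.86 between row ENSDARG00000078069 and dhfr.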

How the data were processed

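The authors deposited 1 table of FPKM per gene. The submitters' processing notes name the build GRCz11 and Cufflinks 2.2.1, STAR 2.5.3a and Trim Galore; with what options and annotation they ran is not given in the sources used here. Dropping 74 repeats among 23800 lines gave 23726 genes. WT columns do not name their control set, which was taken from the leading number they share with the columns of the lines. FPKM keeps no absolute depth, so no counting intervals are given.

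Log2(FPKM + 1) was fitted with limma 3.58.1 (R 4.3.3, variance trend, two-sided) over 13493 genes averaging 1 FPKM or more, with Benjamini-Hochberg adjustment and a threshold of 0.05. Each line had 1 effect, beside a separate WT level per stage of either control set. WT stages were compared through 12 means, 1 per genotype and stage, plus a term for the control set. The fits were run on data simulated from the fitted model itself, with independent errors. Such data do not probe the use of stages in place of replicates. Alternatives were a pseudocount of 0.1, no filter, other scalings, no control set term and left-out libraries.

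The members and lists were chosen with earlier results of these data known. Of the pathway list, named genes are those past the threshold, at most 6 per comparison by size and at most 10 for WT at 4.5 against 3 hpf; for likeness, the 5 highest r for each row were taken. A gene that this rule names is not reported here. No sequence or coordinate is printed.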

Additional observations from a re-analysis of the deposited data

How the results depend on the processing

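Of the recomputed member differences, 334 stayed within their spread and 53 moved, 18 of them among the 42 under median-ratio scaling; no called difference changed sign. Of the recomputed differences of named pathway genes, 229 stayed on their side of the threshold and 97 no longer passed it, all in the same direction. Row ENSDARG00000078069 of rrm2 in Tgnup133 embryos differed by −6.88 with a pseudocount of 0.1 and by −6.90 without the 4.5 hpf libraries. The WT count at 4.5 against 3 hpf was 17 without the filter and 8 to 17 with 1 WT library left out. The WT count at 4 against 3 hpf was 0 without the filter and 0 with any 1 WT library left out, where limma gave 31 and 12 to 18 genes at an unadjusted p under 0.05. The WT count at 4.5 against 4 hpf was 0 with a pseudocount of 0.1, 0 without the filter and 0 with any 1 WT library left out, where 25, 25 and 12 to 19 genes had an unadjusted p under 0.05. The MZnup133 count was 3 without the 4 hpf libraries and 5 without the 4.5 hpf libraries, and the Melys count was 2 without either. The Tgnup133 count was 0 without any 1 stage, with 7 to 16 genes at an unadjusted p under 0.05. Without the control set term the Tgnup133 count was 4 and the Melys count 18. The scaling splits of the WT counts were 4 higher and 4 lower at 4 against 3 hpf (median-ratio) and 3 higher and 2 lower at 4.5 against 4 hpf (same sum). Fewer libraries were fitted in each left-out setting; the cause of the other moves was not tested. The labels carry no replicate numbers, so libraries were matched only by control set and stage. Each line was set against the WT library of its own set and stage, and the fit without the control set term drops this matching by set.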

Other observations

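Splits between rows of 1 symbol were looked for in the whole table after the rrm2 values had been seen. Of 326 symbols with 2 identifiers, 73 had a summed level of at least 5 FPKM in every library, and in 28 of these both rows held 10% to 90% of the sum in all 6 WT libraries. In 2 of the 28 a row fell under 5% of the sum at all 3 stages of a line: rrm2 in Tgnup133 and Melys embryos, and dap1b in Tgnup133 embryos. The dap1b row ENSDARG00000109678 was listed at 0, 0 and at 11.1 FPKM in Tgnup133 embryos, against 46.9, 41.9 and 71.2 FPKM in WT of the nup133 set. The other dap1b row, ENSDARG00000086842, stood at 247.4, 378.9 and 285.6 FPKM in Tgnup133 embryos, against 141.7, 174.4 and 178.3 FPKM in WT. In MZnup133 embryos that row stood at 31.2, 37.6 and 51.0 FPKM, while ENSDARG00000109678 stood at 109.7, 56.0 and 78.2 FPKM.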
